A study of Mus musculus with 4 samples.

Results

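The genes described here encode collagens and other proteins of the connective tissue matrix, together with the contractile and receptor genes that mark the cells producing it. They were chosen by symbol. Every row named as a collagen chain was taken, with Fn1, Sparc, Dcn, Lum, Bgn, Fbn1, Postn, Tagln, Acta2, Des, Pdgfra and Pdgfrb. The deposited table held 56 such rows among 24784, and 54 were above 0 in at least 1 library. The others, Col2a1 of cartilage and Col6a4, were listed at 0 in all 4 libraries. Of the 54 members, 42 were collagen chains. A mean of at least 1 RPKM (reads per kilobase of transcript length and per unit of library size) was reached by 28 members, 18 of them collagens, and these were tested. The other 26 are described by their values.

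The libraries were made from the polyadenylated RNA of macrophages that had been sorted by flow from a liver tumour after collagenase digestion and a density gradient. The mice were male, 6 to 8 weeks old, and both groups had received Hepa 1-6, a hepatoma line of the mouse. OXCT1mKO was represented by 2 libraries and Control, called WT in the titles, by 2. The sources used here give neither the allele, nor the driver of the deletion, nor the sorting antibodies, and the labels do not say that the libraries came from separate animals. The p-values therefore measure only the spread between these libraries, which may be technical.

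Collagens are triple-helical proteins built from 3 chains, in which fibrillar types carry tension, type IV forms the sheet of basement membranes and type VI forms beaded filaments around cells. In the liver the main producers of fibrillar collagen are hepatic stellate cells and portal fibroblasts, which turn on smooth muscle actin when activated. Type IV collagen is also made by endothelial cells, and fibronectin and SPARC are made by many cell types, macrophages among them.

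The spacing of the lowest values placed the libraries at estimated relative depths of 0.955 and 0.901 in OXCT1mKO and 1 and 1.02 in Control. Globin rows, some of them near-identical copies, set Control 1 apart from the others. Together they made up 0.137% and 0.132% of the RPKM sum in OXCT1mKO and 8.81% and 0.327% in Control. Oxct1, the gene named in the genotype, had 14.7 and 15.4 RPKM in OXCT1mKO and 19.3 and 20.3 RPKM in Control. The sorted libraries held transcripts of other cells. The macrophage gene Csf1r had 128 and 115 RPKM in OXCT1mKO and 45.8 and 28.8 RPKM in Control, and Lyz2, lysozyme of myeloid cells, had 8.76 and 6.52 RPKM in OXCT1mKO and 688 and 744 RPKM in Control. The Lyz2 locus carries Cre in a widely used macrophage driver line. Since the driver is not given here, Lyz2 cannot be read as a measure of macrophage content. Another macrophage gene, Adgre1, had 32.8 and 30.1 RPKM in OXCT1mKO and 16.6 and 9.63 RPKM in Control. The most abundant macrophage markers, C1qa and C1qb, overlapped between the groups and did not pass. C1qa had 389 and 439 RPKM in OXCT1mKO and 475 and 227 RPKM in Control. Of 17 tested macrophage markers, 10 rose and 1 fell, which is 64.7%, beside 32.8% of all tested genes. Krt18, a keratin of epithelial cells, had 268 and 234 RPKM in OXCT1mKO and 330.1 and 444 RPKM in Control. Kdr of endothelial cells had 162 and 137 RPKM in OXCT1mKO and 54.8 and 65.1 RPKM in Control. The hepatocyte gene Alb had 360.5 and 277 RPKM in OXCT1mKO and 418 and 372 RPKM in Control, and did not pass. Its list as a whole did not follow it. Of 14 tested hepatocyte markers, 4 rose and 2 fell, which is 42.9%, beside 32.8% of all tested genes. Their median log2 fold change, OXCT1mKO minus Control, was 0.96. The list summed to 836 and 548 RPKM in OXCT1mKO and 646 and 549 RPKM in Control, so the sums of the groups overlapped. Of those that rose, Cps1 and Cyp3a11 reached the mean needed for a test only through OXCT1mKO. All 9 tested markers of pancreatic acinar cells fell, beside 16.4% lower of all tested genes. Most of these markers reached the mean needed for a test only through Control, which favours a fall among those tested. The list summed to 5.85 and 4.19 RPKM in OXCT1mKO and 58.6 and 44.0 RPKM in Control. Of 11 tested hepatoma and biliary markers, 4 fell, namely Afp, Gpc3, Sox9 and Krt7, and Cdh1 rose. Afp, alpha-fetoprotein, had 24.5 and 32.7 RPKM in OXCT1mKO and 118 and 86.0 RPKM in Control. Fewer cells of a type and less RNA per cell cannot be told apart in such bulk values.

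Among the 28 tested members, 6 passed the limma threshold of an adjusted p under 0.05. Col6a1, Col6a2 and Col13a1 rose in OXCT1mKO, and Acta2, Tagln and Col9a1 fell. Over all 12523 genes tested, 32.8% passed, 16.4% in each direction, so the members passed at 21.4%, below that background. The median log2 fold change (OXCT1mKO minus Control, on the log2(RPKM + 1) scale) was 0.04 over the tested members and 0.00 over all tested genes. The 22 members that did not pass had values between -0.55 and 0.55. The groups did not overlap for 15 of the 28, 8 higher and 7 lower in OXCT1mKO, whereas this held for 74.7% of all tested genes, 37.6% higher and 37% lower. Without either OXCT1mKO library, 0 of the 28 members passed by limma in each case, although 8 had an unadjusted p under 0.05. Of all 12523 genes, 1 passed without OXCT1mKO 1 and 10 without OXCT1mKO 2, so the absence of calls is not particular to the members. Those fits have 1 residual degree of freedom and take the lone library to vary as the controls do. The adjusted p of the 6 members then lay between 0.0731 and 0.173. Setting the RPKM sums of the libraries equal moved the median of all tested genes by 0.14 and split the calls into 2878 higher and 1104 lower, against 2058 and 2052 without it, but the same direction and call held for each of the 6 members.

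**Figure D1:**
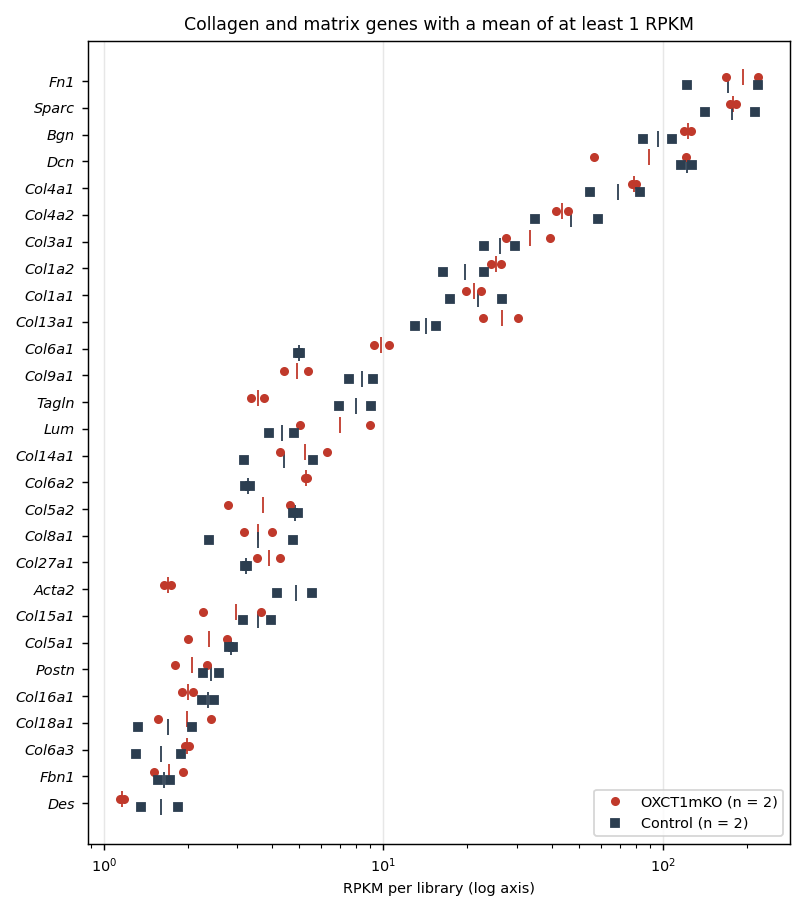
RPKM of the 28 tested members in each library on a log axis, with circles for OXCT1mKO, squares for Control and vertical ticks for group means (n = 2 each). Levels run over more than 2 orders of magnitude, with Fn1 and Sparc at the top and Des at the bottom, and the groups overlap for 13 genes.

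**Figure D2:**
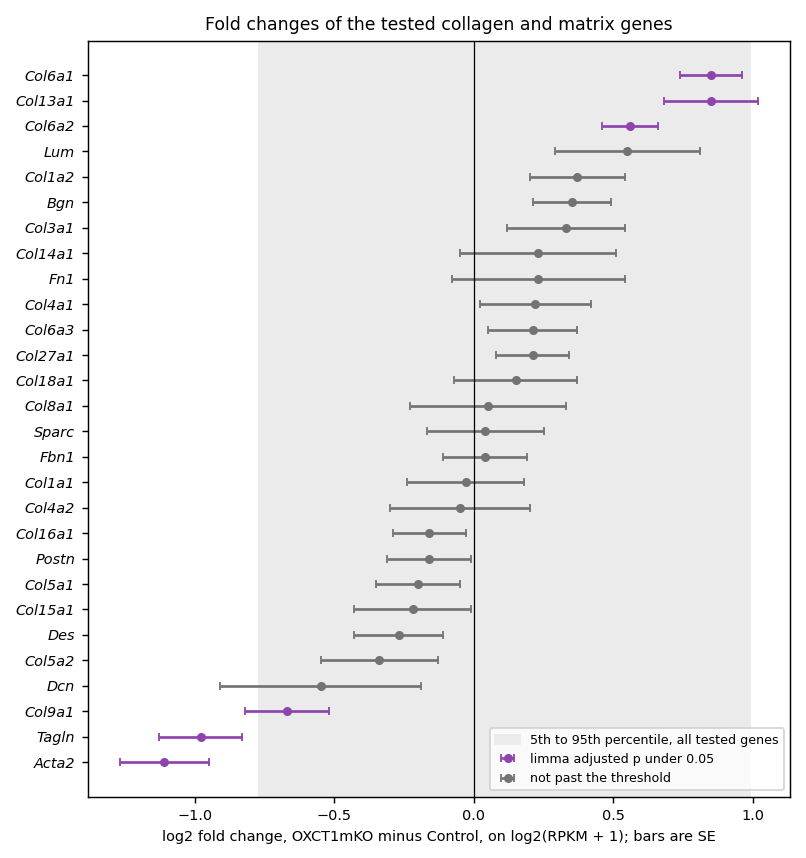
Log2 fold changes of the tested members with their standard errors (SE), purple where the limma adjusted p is under 0.05. The shaded band spans the 5th to the 95th percentile of all tested genes, from -0.77 to 0.99, and Acta2 and Tagln lie outside it.

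The contractile genes showed the largest differences among tested members. Acta2, the smooth muscle actin that marks activated stellate cells, myofibroblasts and smooth muscle, had 1.75 and 1.65 RPKM in OXCT1mKO and 5.57 and 4.17 RPKM in Control. Both OXCT1mKO libraries lay below both controls, and the mean level was 1.70 ± 0.068 RPKM in OXCT1mKO and 4.87 ± 0.99 RPKM in Control (SD, n = 2 each), a ratio of 0.348. Its log2 fold change was -1.11 ± 0.16 (SE) and the adjusted p from limma was 0.0137. These levels correspond to an estimated 81 and 72 reads in OXCT1mKO and 271 and 207 reads in Control. Tagln encodes transgelin, an actin-binding protein of smooth muscle. It had 3.36 and 3.76 RPKM in OXCT1mKO and 9.07 and 6.96 RPKM in Control, again without overlap. The log2 fold change was -0.98 ± 0.15 (SE) and the adjusted p from limma was 0.0155. Exons of an antisense gene, Gm48529, cover 62.4% of the exon length of Tagln, and those of Pcsk7 on the other strand cover 5.43%. The strand setting of the counting is not given in the sources used here, so reads of these genes may be mixed. Pcsk7 had 8.38 and 7.75 RPKM in OXCT1mKO and 5.88 and 5.84 RPKM in Control, a difference opposite to that of Tagln. Des, the intermediate filament desmin of muscle and of stellate cells in rodents, had 1.18 and 1.14 RPKM in OXCT1mKO and 1.85 and 1.37 RPKM in Control. At -0.27 ± 0.16 on the log2 scale the difference did not pass (adjusted p = 0.24 by limma).

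The start of Acta2 is shown because this gene had the largest fold change of the tested members and because the serum response factor, which drives contractile genes, binds elements called CArG boxes. RefSeq gives 1 window for Acta2, from 250 bases before to 50 after the start site, at chr19:34255324-34255623 on the minus strand of GRCm38.p6. Capitals mark matches to the CArG box with 1 mismatch allowed in its A and T core, a motif that reads the same on both strands.
Acta2: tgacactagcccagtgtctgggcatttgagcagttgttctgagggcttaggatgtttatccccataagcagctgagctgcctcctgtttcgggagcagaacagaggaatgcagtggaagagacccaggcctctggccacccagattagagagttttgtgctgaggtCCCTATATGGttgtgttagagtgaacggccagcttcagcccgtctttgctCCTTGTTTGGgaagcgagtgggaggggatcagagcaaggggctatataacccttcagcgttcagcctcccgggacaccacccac
The matches begin 84 and 34 bases before the RefSeq start site, 34255373, and do not overlap each other. In GENCODE M21 the gene begins further upstream, at 34255590, so both matches lie inside that annotated gene. The distances hold for the RefSeq start only. With no mismatch allowed, the window held no match. Of 32817 such windows of mouse genes, 1.63% held an exact CArG box and 9.99% held one with up to 1 mismatch in the core. Tagln had no entry in this table.

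Other smooth muscle genes did not all follow Acta2 and Tagln. Of 15 tested genes of a contractile list, members left out, 2 fell and 1 rose. That is 20.0%, beside 32.8% of all tested genes, with a median log2 fold change of 0.08. Tpm1, a tropomyosin, had 20.7 and 20.4 RPKM in OXCT1mKO and 29.6 and 33.9 RPKM in Control, a log2 fold change of -0.60 ± 0.10 (adjusted p = 0.018 by limma). Myl6, a myosin light chain of smooth muscle and non-muscle cells, had 159.6 and 160.4 RPKM in OXCT1mKO and 226 and 260.3 RPKM in Control, a log2 fold change of -0.60 ± 0.11 (adjusted p = 0.0205 by limma). Mkl1, a cofactor of serum response factor, rose to 9.32 and 9.88 RPKM in OXCT1mKO, against 6.14 and 4.59 RPKM in Control (adjusted p = 0.0242 by limma). Smtn, a smooth muscle cytoskeletal protein, had 15.6 and 16.2 RPKM in OXCT1mKO and 11.6 and 13.4 RPKM in Control and did not pass. The defining genes of mature smooth muscle were low. Myh11, the smooth muscle myosin heavy chain, had 0.177 and 0.175 RPKM in OXCT1mKO and 0.229 and 0.232 RPKM in Control. Actg2, the enteric smooth muscle actin, had 0.0708 and 0.113 RPKM in OXCT1mKO and 1.12 and 0.726 RPKM in Control. Cnn1 had 0.0502 and 0.0748 RPKM in OXCT1mKO and 0.179 and 0.176 RPKM in Control. Lmod1 had 0.0943 and 0.0377 RPKM in OXCT1mKO and 0.126 and 0.111 RPKM in Control. Like Myh11 and Actg2, both were lower without overlap, as were 13.8% of all genes above 0 with a mean under 1 RPKM. The groups of Cspg4 and Notch3 overlapped. Of 11 smooth muscle and pericyte markers, 2 reached the level needed for a test. Neither passed, adjusted or at an unadjusted p under 0.05. The 11 together summed to 7.25 and 5.72 RPKM in OXCT1mKO and 6.94 and 8.10 RPKM in Control. Most of that sum was Abcc9, Kcnj8 and Rgs5. Abcc9 was higher and Kcnj8 lower in both OXCT1mKO libraries, and the groups of Rgs5 overlapped. The pericyte gene Higd1b was at 0 in both OXCT1mKO libraries and at 0.0117 and 0.0263 RPKM in Control, near 0 throughout, and Myocd, the smooth muscle coactivator, was at 0 in every library but Control 1. The part of these cells in the fall of Acta2 and Tagln, and that of the acinar, hepatoma and T cell transcripts that fell with them, was not tested.

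**Figure D3:**
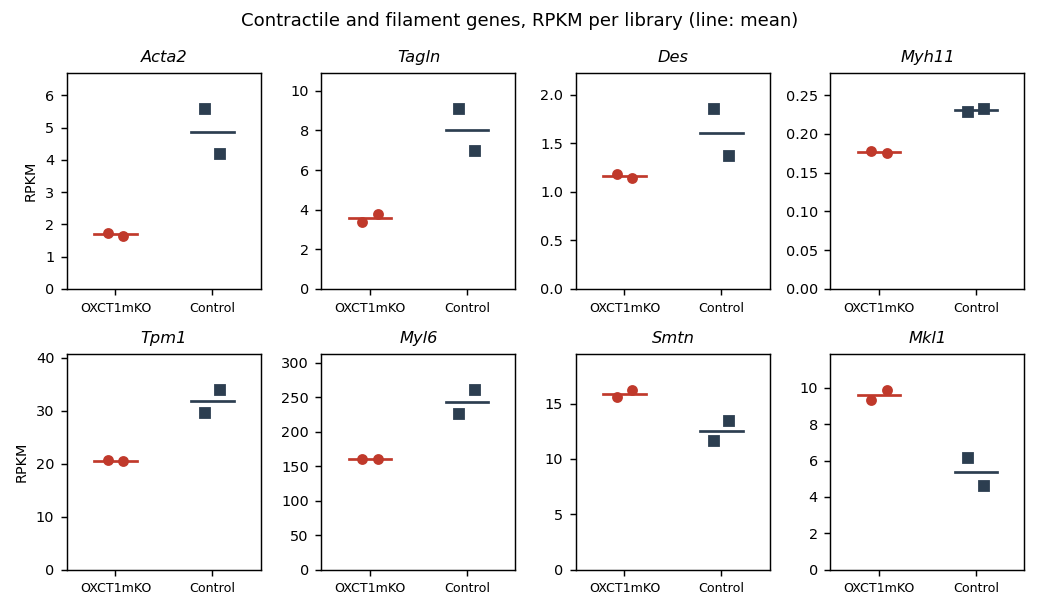
RPKM of contractile and filament genes in each library, with circles for OXCT1mKO, squares for Control and lines for group means (n = 2 each). Acta2, Tagln, Tpm1 and Myl6 were lower in both OXCT1mKO libraries and Mkl1 higher, while Myh11 stayed under 0.3 RPKM everywhere.

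The type VI collagens were the one collagen type with more than 1 member that passed. Col6a1 encodes the alpha 1 chain and had 10.5 and 9.26 RPKM in OXCT1mKO and 5.05 and 4.95 RPKM in Control. The mean was 9.85 ± 0.845 RPKM in OXCT1mKO and 5.00 ± 0.071 RPKM in Control (SD, n = 2 each), and the log2 fold change was 0.85 ± 0.11 (adjusted p = 0.0128 by limma). Its partner Col6a2 had 5.36 and 5.25 RPKM in OXCT1mKO and 3.35 and 3.19 RPKM in Control, a log2 fold change of 0.56 ± 0.10 (adjusted p = 0.0211 by limma). Both libraries of OXCT1mKO lay above both controls for each gene. With no filter on low values, Col6a2 did not pass (adjusted p = 0.0538 by limma). The pair lie 85.2 kb apart on the minus strand of chromosome 10, Col6a1 from 76708792 to 76726168 and Col6a2 from 76595762 to 76623630 (GENCODE M21, GRCm38). Col6a3, the large chain of the classical trimer, had 2.02 and 1.95 RPKM in OXCT1mKO and 1.90 and 1.31 RPKM in Control, a log2 fold change of 0.21 ± 0.16 that did not pass (adjusted p = 0.359 by limma).

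Col6a5, an alternative type VI chain, fell just short of the level needed for a test, with a mean of 0.912 RPKM, and had the largest ratio between group means of any member with a mean of at least 0.5 RPKM. It had 1.72 and 1.68 RPKM in OXCT1mKO and 0.14 and 0.112 RPKM in Control, which correspond to an estimated 342 and 315 reads in OXCT1mKO and 29 and 24 reads in Control. The ratio of the means was 13.5. Where genes down to a mean of 0.1 RPKM were tested with a pseudocount of 0.1, its log2 fold change was 2.99 ± 0.29 (adjusted p = 0.0152 by limma), and 23.6% of 16023 genes passed. With no filter on low values and a pseudocount of 1 it was 1.26 ± 0.08 (adjusted p = 0.0351 by limma), and 12% of 19514 genes passed, 6.1% higher and 5.89% lower. Its neighbour Col6a6, which lies 27.9 kb away on chromosome 9, had 0.389 and 0.184 RPKM in OXCT1mKO and 0.198 and 0.0353 RPKM in Control, and the groups overlapped.

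The type IV collagens split by chain. Col4a1 and Col4a2 form the common basement membrane trimer and were the most abundant collagen transcripts on the RPKM scale. Col4a1 had 80.0 and 77.9 RPKM in OXCT1mKO and 55.0 and 82.7 RPKM in Control. Control 2 lay above both OXCT1mKO libraries and Control 1 below them, and at 0.22 ± 0.20 on the log2 scale the difference did not pass (adjusted p = 0.424 by limma). It was 0.51 and passed without Control 2 (adjusted p = 0.0231 by limma), and was -0.07 without Control 1 (adjusted p = 0.562 by limma). Col4a2 had 45.8 and 41.6 RPKM in OXCT1mKO and 34.8 and 58.8 RPKM in Control, with a log2 fold change of -0.05 ± 0.25 (adjusted p = 0.889 by limma).

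The genes of this pair face away from each other on chromosome 8 and share their starts, which is why both start regions are shown. The RefSeq windows are chr8:11312777-11313076 on the minus strand for Col4a1 and chr8:11312555-11312854 on the plus strand for Col4a2, both of GRCm38.p6. Capitals mark the 78 bases that the windows share, each written on the strand of its own gene.
Col4a1: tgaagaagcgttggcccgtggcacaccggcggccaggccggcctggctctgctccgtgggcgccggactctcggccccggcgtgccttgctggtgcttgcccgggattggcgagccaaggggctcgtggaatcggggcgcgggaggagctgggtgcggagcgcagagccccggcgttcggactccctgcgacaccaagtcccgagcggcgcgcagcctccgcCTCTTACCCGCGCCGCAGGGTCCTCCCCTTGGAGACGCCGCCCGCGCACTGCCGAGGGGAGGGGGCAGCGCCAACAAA
Col4a2: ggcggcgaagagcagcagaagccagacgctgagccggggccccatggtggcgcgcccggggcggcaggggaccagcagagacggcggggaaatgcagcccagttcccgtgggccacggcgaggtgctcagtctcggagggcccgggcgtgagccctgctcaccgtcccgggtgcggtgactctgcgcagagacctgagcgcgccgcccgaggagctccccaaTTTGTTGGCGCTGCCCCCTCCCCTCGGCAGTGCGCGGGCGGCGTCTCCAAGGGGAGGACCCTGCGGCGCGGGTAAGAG
The start sites are 21 bases apart, so that the first 22 transcribed bases of one gene lie opposite those of the other. Each window held 1 match to CCAAT searched on both strands, beginning at position -145 from the start site of Col4a1 and -32 from that of Col4a2, and 37.4% of all windows held at least 1. The ratio of Col4a1 to Col4a2 RPKM was 1.75 and 1.87 in OXCT1mKO and 1.58 and 1.41 in Control.

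The minor type IV chains include alpha 3, 4 and 5, which make the basement membrane of the kidney glomerulus. They were present at low levels, and each was higher in both OXCT1mKO libraries. So were 25.2% of all genes above 0 with a mean under 1 RPKM. Col4a5 had 0.873 and 0.55 RPKM in OXCT1mKO and 0.164 and 0.321 RPKM in Control. Col4a6 had 0.241 and 0.267 RPKM in OXCT1mKO and 0.0848 and 0.0717 RPKM in Control. Col4a4 had 0.29 and 0.21 RPKM in OXCT1mKO and 0.0684 and 0.0725 RPKM in Control, and Col4a3 had 0.273 and 0.137 RPKM in OXCT1mKO and 0.0157 and 0.106 RPKM in Control. These values rest on few reads, an estimated 3 to 124 per library. With no filter on low values, Col4a6 passed with a log2 fold change of 0.22 ± 0.04 (adjusted p = 0.0453 by limma), and the other minor chains did not. With a minimum mean of 0.1 RPKM and a pseudocount of 0.1, none of the minor chains passed by limma, and Col4a5 was the one with an unadjusted p under 0.05. Col4a3 and Col4a4 start next to each other, as do Col4a5 and Col4a6.

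**Figure D4:**
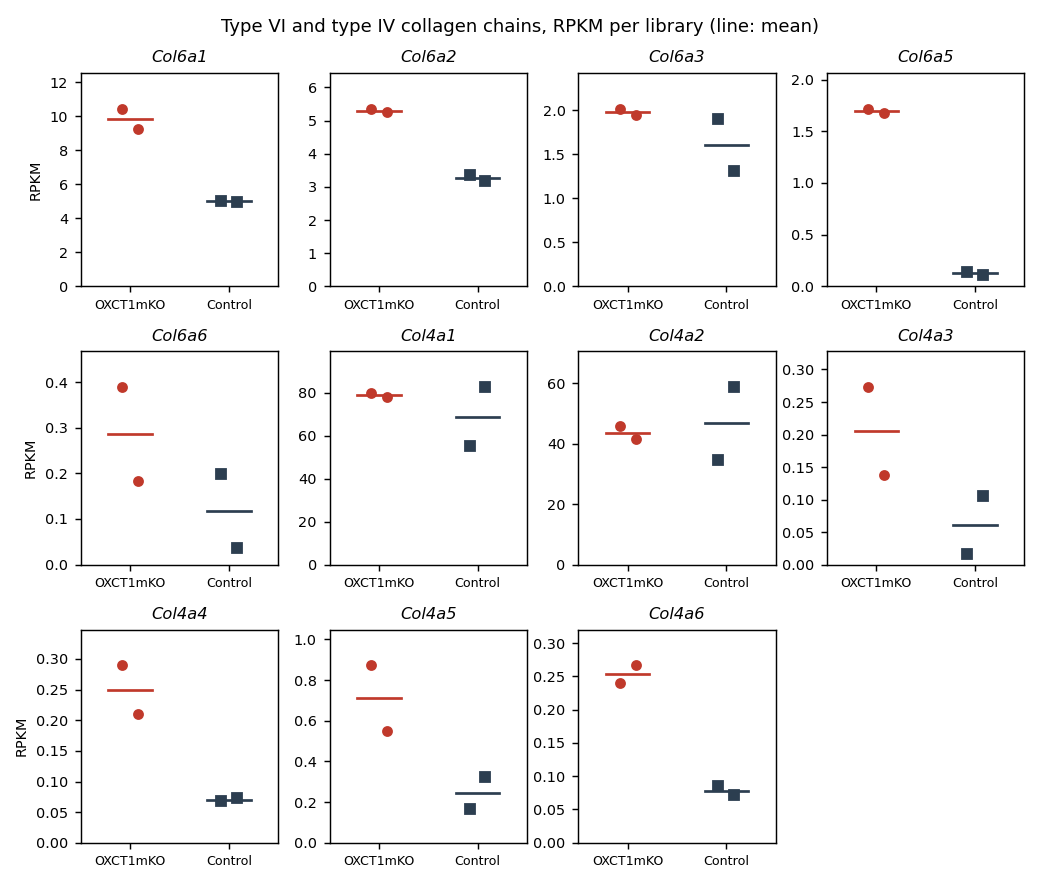
RPKM of the type VI and type IV collagen chains in each library, each panel with its own axis from 0, circles for OXCT1mKO, squares for Control and lines for group means (n = 2 each). Col6a1, Col6a2 and Col6a5 separate clearly, Col4a1 and Col4a2 do not, and the minor type IV chains separate below 1 RPKM.

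Other components of the basement membrane and the markers of endothelial cells are set beside these values. Of 19 tested laminins and basement membrane genes, 4 rose and 0 fell by limma, with 8 higher and 1 lower at an unadjusted p under 0.05. That is 21.1% higher, beside 16.4% higher of all tested genes, and the median log2 fold change was 0.22. Lama4, a laminin chain of vessels, had 13.9 and 12.1 RPKM in OXCT1mKO and 5.30 and 5.77 RPKM in Control, and Hspg2, the proteoglycan perlecan, had 45.3 and 44.5 RPKM in OXCT1mKO and 27.0 and 32.4 RPKM in Control. Mmrn2, an endothelial matrix protein, and Pxdn, the peroxidase that crosslinks type IV collagen, also rose, by log2 fold changes of 1.22 ± 0.20 and 0.78 ± 0.15. Of 23 endothelial markers, 15 rose, which is 65.2%, beside the same 16.4% of all tested genes. Their summed level was 3580 and 3178 RPKM in OXCT1mKO and 1814 and 2150 RPKM in Control for all 23. The most abundant were genes of liver sinusoids. Clec4g had 718 and 642 RPKM in OXCT1mKO and 427 and 483 RPKM in Control, and Fcgr2b had 587 and 494 RPKM in OXCT1mKO and 237 and 259.7 RPKM in Control. The part of these cells in the type IV and type VI values was not tested.

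The fibrillar collagens of the stroma showed no difference that passed. Col1a1, the main chain of type I collagen, had 19.8 and 22.3 RPKM in OXCT1mKO and 26.5 and 17.3 RPKM in Control. The controls lay on either side of the OXCT1mKO libraries, and the log2 fold change was -0.03 ± 0.21 (adjusted p = 0.933 by limma), positive (0.13 and 0.07) when RPKM sums were set equal with and without globin. Col1a2, the second chain of type I, had 26.5 and 24.2 RPKM in OXCT1mKO and 23.0 and 16.4 RPKM in Control. Its groups did not overlap, and at 0.37 ± 0.17 on the log2 scale the difference did not pass (adjusted p = 0.162 by limma), though it was 0.60 and passed without Control 1 (adjusted p = 0.0314 by limma) and was 0.13 without Control 2 (adjusted p = 0.337 by limma). Col3a1, the fibrillar collagen of distensible tissue, had 27.6 and 39.6 RPKM in OXCT1mKO and 29.5 and 22.9 RPKM in Control, a log2 fold change of 0.33 ± 0.21 (adjusted p = 0.271 by limma).

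Of the type V chains, which start and thin type I fibrils, Col5a2 and Col5a1 were lower in both OXCT1mKO libraries without passing. Col5a2 had 2.78 and 4.63 RPKM in OXCT1mKO and 4.74 and 4.97 RPKM in Control (-0.34 ± 0.21), and Col5a1 had 2.01 and 2.76 RPKM in OXCT1mKO and 2.81 and 2.91 RPKM in Control (-0.20 ± 0.15). Col5a3 lay below the level needed for a test and was higher in both OXCT1mKO libraries, at 0.534 and 0.894 RPKM in OXCT1mKO and 0.358 and 0.468 RPKM in Control. Col5a2 and Col3a1 are neighbours on chromosome 1, 24.6 kb apart, and their fold changes had opposite signs. Col27a1 had 4.27 and 3.53 RPKM in OXCT1mKO and 3.26 and 3.20 RPKM in Control (0.21 ± 0.13), and Col11a2, a minor fibrillar chain of cartilage, stayed between 0.847 and 1.04 RPKM in all libraries.

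Summed over all 42 collagen chains, the level was 288 and 285 RPKM in OXCT1mKO and 232 and 263 RPKM in Control. Type IV made up 44.3% and 42.3% of that sum in OXCT1mKO and 38.8% and 54.0% in Control. Fibrillar chains made up 29.4% and 34.7% in OXCT1mKO and 39.3% and 26.2% in Control, so that neither class separated the groups. Type VI chains made up 6.93% and 6.42% in OXCT1mKO and 4.58% and 3.65% in Control. Transmembrane collagens made up 11.1% and 8.24% in OXCT1mKO and 5.77% and 6.31% in Control, and Col13a1 supplied most of them.

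Col13a1 encodes a collagen that spans the cell membrane and sits at adhesion sites. It had 30.4 and 22.7 RPKM in OXCT1mKO and 12.9 and 15.5 RPKM in Control, and the groups did not overlap. The mean was 26.5 ± 5.41 RPKM in OXCT1mKO and 14.2 ± 1.80 RPKM in Control (SD, n = 2 each), and the log2 fold change was 0.85 ± 0.17 (adjusted p = 0.0253 by limma). The call was lost without Control 1, at 0.73 (adjusted p = 0.0667 by limma), and with no filter on low values (adjusted p = 0.0599 by limma). Another transmembrane collagen, Col23a1, had 1.15 and 0.612 RPKM in OXCT1mKO and 0.411 and 0.971 RPKM in Control, with overlap. Col17a1, the hemidesmosome collagen of skin, stayed at or below 0.35 RPKM.

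Among fibril-associated collagens, which decorate fibrils without forming them, Col9a1 fell. It is best known from cartilage and had 4.40 and 5.40 RPKM in OXCT1mKO and 9.21 and 7.54 RPKM in Control, a log2 fold change of -0.67 ± 0.15 (adjusted p = 0.0306 by limma). The call was lost without Control 1, at -0.54 (adjusted p = 0.0703 by limma), and with no filter on low values (adjusted p = 0.0697 by limma). The other chains of the type IX trimer were far lower on the RPKM scale. Col9a3 had 0.472 and 0.205 RPKM in OXCT1mKO and 0.458 and 0.45 RPKM in Control, and Col9a2 stayed at or below 0.0834 RPKM in all libraries. Col14a1 had 6.27 and 4.27 RPKM in OXCT1mKO and 5.63 and 3.18 RPKM in Control (0.23 ± 0.28), and Col16a1 had 2.09 and 1.91 RPKM in OXCT1mKO and 2.24 and 2.47 RPKM in Control (-0.16 ± 0.13). Col20a1, below the level for a test, had 1.31 and 1.07 RPKM in OXCT1mKO and 0.548 and 0.636 RPKM in Control.

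The remaining tested collagens did not pass. Col8a1, a short-chain collagen of vessel walls, had 3.17 and 3.99 RPKM in OXCT1mKO and 2.39 and 4.74 RPKM in Control. Col15a1 and Col18a1 are basement membrane collagens with sugar side chains, the second being the source of endostatin. Col15a1 had 2.28 and 3.65 RPKM in OXCT1mKO and 3.96 and 3.15 RPKM in Control, and Col18a1 had 2.41 and 1.56 RPKM in OXCT1mKO and 1.32 and 2.07 RPKM in Control. The groups of all these genes overlapped, and their log2 fold changes were 0.05 ± 0.28 for Col8a1, -0.22 ± 0.21 for Col15a1 and 0.15 ± 0.22 for Col18a1.

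The most abundant members were matrix glycoproteins and proteoglycans. Fn1, the adhesive protein fibronectin, had 168 and 219 RPKM in OXCT1mKO and 122 and 219.8 RPKM in Control, and Sparc, a collagen-binding matricellular protein, had 174 and 183 RPKM in OXCT1mKO and 141 and 213 RPKM in Control. The controls lay on either side of the OXCT1mKO libraries for both genes. The log2 fold changes were 0.23 ± 0.31 for Fn1 and 0.04 ± 0.21 for Sparc, and without Control 1 they were -0.20 for Fn1 and -0.26 for Sparc. Fbn1, the microfibril protein fibrillin, and Postn, a matricellular protein of activated stroma, lay between 1.51 and 2.59 RPKM in all libraries, with fold changes of 0.04 ± 0.15 and -0.16 ± 0.15. Exons of another gene on the opposite strand, Gm9913, cover 20.1% of the exon length of Fbn1.

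Small leucine-rich proteoglycans bind collagen fibrils and space them. Bgn, biglycan, had 126 and 119 RPKM in OXCT1mKO and 85.3 and 107 RPKM in Control, and its groups did not overlap. At 0.35 ± 0.14 on the log2 scale the difference did not pass (adjusted p = 0.106 by limma), but passed without Control 2 (0.52; adjusted p = 0.0255 by limma), with RPKM sums set equal without globin (0.45; adjusted p = 0.0481 by limma) and with quantile normalization (0.46; adjusted p = 0.0496 by limma). Without Control 1 it was 0.19 (adjusted p = 0.184 by limma). Dcn, decorin, had 121 and 56.9 RPKM in OXCT1mKO and 128 and 116 RPKM in Control. OXCT1mKO 2 stood apart while OXCT1mKO 1 lay among the controls, and the log2 fold change was -0.55 ± 0.36 (adjusted p = 0.279 by limma). Lum, lumican, had 8.99 and 5.05 RPKM in OXCT1mKO and 4.79 and 3.89 RPKM in Control, a log2 fold change of 0.55 ± 0.26 (adjusted p = 0.165 by limma). Dcn and Lum are neighbours on chromosome 10, 47.0 kb apart, and had fold changes of opposite sign.

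Ratios of members within a library do not depend on how libraries are scaled. Of the 14 ratios computed, several share a gene, and no share over other gene pairs was computed, so they are given as values. The smallest two-sided p of an exact permutation test at this size is 0.333. Dcn to Lum stood at 13.5 and 11.3 in OXCT1mKO and 26.7 and 29.9 in Control. The ratio of Col1a1 to Col1a2, whose protein chains join as a pair to one, was 0.75 and 0.921 in OXCT1mKO and 1.15 and 1.06 in Control. Col6a1 to Col6a2 stood at 1.95 and 1.76 in OXCT1mKO and 1.51 and 1.55 in Control. Acta2 relative to Col1a1 was 0.088 and 0.0739 in OXCT1mKO and 0.21 and 0.241 in Control.

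**Figure D5:**
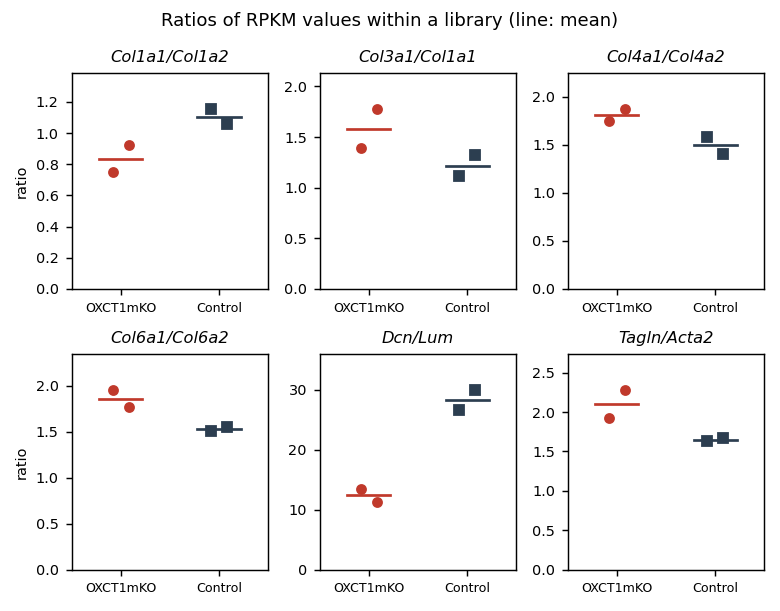
Ratios of RPKM values of member pairs within each library, with circles for OXCT1mKO, squares for Control and lines for group means (n = 2 each), each axis from 0. The ratio of Dcn to Lum has a mean of 12.4 in OXCT1mKO and 28.3 in Control, and the other ratios shown differ by smaller steps.

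The receptors for platelet-derived growth factor that mark mesenchymal cells were below the level needed for a test. Pdgfrb, of pericytes and stellate cells, had 0.645 and 0.645 RPKM in OXCT1mKO and 0.882 and 0.906 RPKM in Control. Pdgfra, of fibroblasts, had 0.981 and 0.627 RPKM in OXCT1mKO and 0.584 and 0.282 RPKM in Control. Of all 26 members below the level, 14 were higher and 2 lower in both OXCT1mKO libraries without overlap. That is 53.8% higher. Of all 6991 genes above 0 with a mean under 1 RPKM, 39.1% did not overlap, 25.2% higher and 13.8% lower. Of these 26, 19 had a mean under 0.5 RPKM and stayed under 1 RPKM in all libraries. Col10a1 of growth cartilage reached 0.744 RPKM in Control 2 and 0.143 RPKM or less in the other libraries. Col7a1, Col12a1, Col22a1 and Col28a1 lay between 0.116 and 0.498 RPKM in all libraries. Col8a2 had 0.396 and 0.193 RPKM in OXCT1mKO and 0.0415 and 0.0317 RPKM in Control. Col11a1, Col19a1, Col24a1, Col25a1 and Col26a1 stayed at or below 0.115 RPKM.

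Some of the listed stellate cell and fibroblast markers were low, Lrat and Reln among them, and others were not. Ngfr had 11.77 and 11.66 RPKM in OXCT1mKO and 11.81 and 14.7 RPKM in Control. Cygb had 8.58 and 7.70 RPKM in OXCT1mKO and 5.79 and 7.25 RPKM in Control. Lrat, which stores retinol as esters in stellate cells, had 0.278 and 0.166 RPKM in OXCT1mKO and 0.445 and 0.312 RPKM in Control. Reln, another gene of stellate cells, had 0.71 and 0.249 RPKM in OXCT1mKO and 0.226 and 0.282 RPKM in Control. Of 11 tested stellate cell and fibroblast markers, 1 rose and 1 fell, which is 18.2%, beside 32.8% of all tested genes. All 20 markers summed to 137.4 and 137.1 RPKM in OXCT1mKO and 157 and 183 RPKM in Control. Ecm1 and Thy1 carried that difference. The other 18 summed to 63.9 and 50.7 RPKM in OXCT1mKO and 36.8 and 39.9 RPKM in Control, higher in both OXCT1mKO libraries. Most of that difference was Dpt, dermatopontin, the one tested marker that rose by limma. It had 21.4 and 12.1 RPKM in OXCT1mKO and 3.33 and 2.26 RPKM in Control. Hgf, Pdpn, Mfap4, Cygb and Pdgfrl were also higher in both OXCT1mKO libraries. Lrat, Ngfr, Hand2, Colec11 and Tcf21 were lower in both, so the 18 did not share a direction. The one tested marker that fell by limma was Thy1, a surface protein of fibroblasts and of T cells. Thy1 had 11.4 and 17.3 RPKM in OXCT1mKO and 44.7 and 31.8 RPKM in Control. It stands in both lists. Of 9 tested T cell markers, 5 fell, which is 55.6%, beside 16.4% lower of all tested genes. Markers of the mesothelium, the lining of the liver surface, were set beside these. Of 5 tested, 1 rose and 0 fell by limma, with 3 higher and 0 lower at an unadjusted p under 0.05. That is 20% higher by limma, close to the 16.4% higher of all tested genes. The one that rose was Upk1b, a uroplakin, at 2.39 and 1.66 RPKM in OXCT1mKO and 0.538 and 0.436 RPKM in Control. It reached the mean needed for a test only through OXCT1mKO. Another uroplakin, Upk3b, had 8.55 and 2.15 RPKM in OXCT1mKO and 0.602 and 1.26 RPKM in Control, and the transcription factor gene Wt1 had 1.25 and 1.41 RPKM in OXCT1mKO and 0.0794 and 0.289 RPKM in Control. Msln, Lrrn4 and Gpm6a were also higher in both OXCT1mKO libraries, and Slurp1 was lower in both. The 8 mesothelial markers summed to 81.5 and 65.2 RPKM in OXCT1mKO and 53.9 and 112 RPKM in Control. Most of that sum was Krt19, which epithelial cells share and whose groups overlapped. The part of these cells in the matrix values was not tested.

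Of 32 tested genes of collagen synthesis and processing, 1 rose and 1 fell, which is 6.25%, beside 32.8% of all tested genes. At an unadjusted p under 0.05, 9 were higher and 3 lower, and the median log2 fold change was 0.16. The count of 2 depended on the scaling. It was 8 with RPKM sums set equal, with or without globin, and 4 without Control 2. Pcolce, which speeds the removal of the C-terminal propeptide, had 65.2 and 79.3 RPKM in OXCT1mKO and 120.02 and 139 RPKM in Control, a log2 fold change of -0.83 ± 0.14 (adjusted p = 0.0175 by limma). Mia2, a factor of secretion from the endoplasmic reticulum, rose by 0.43 ± 0.10 (adjusted p = 0.0374 by limma). Ppib, a folding enzyme of procollagen, had 159.5 and 175 RPKM in OXCT1mKO and 207 and 234 RPKM in Control and did not pass, and P3h2, a prolyl hydroxylase, had 2.46 and 2.76 RPKM in OXCT1mKO and 0.634 and 1.51 RPKM in Control and did not pass.

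Of 26 tested genes of matrix breakdown and uptake, 8 rose and 0 fell by limma, with 9 higher and 2 lower at an unadjusted p under 0.05. That is 30.8%, close to the 32.8% of all tested genes, and the median log2 fold change was 0.44. Ctsk, the collagen-degrading cathepsin K, had 3.80 and 4.02 RPKM in OXCT1mKO and 1.00 and 1.37 RPKM in Control, a log2 fold change of 1.17 ± 0.14 (adjusted p = 0.0127 by limma). Timp3, an inhibitor of metalloproteases bound to the matrix, had 75.3 and 69.4 RPKM in OXCT1mKO and 29.6 and 38.2 RPKM in Control. Adam17, a sheddase, and Ctsb, a lysosomal cathepsin, rose by 0.74 ± 0.09 and 0.55 ± 0.10. Of 23 tested matrix receptors, 6 rose and 1 fell, 30.4% in all, with a median log2 fold change of 0.25. Itga1, the alpha chain of a collagen-binding integrin, had 9.27 and 8.66 RPKM in OXCT1mKO and 3.48 and 4.84 RPKM in Control. Itga9, an integrin chain that binds matricellular proteins, had 23.8 and 23.1 RPKM in OXCT1mKO and 9.11 and 10.9 RPKM in Control, and the syndecan gene Sdc3 had 76.3 and 66.4 RPKM in OXCT1mKO and 31.6 and 25.1 RPKM in Control. Itga3, a laminin-binding integrin chain, had 24.3 and 29.2 RPKM in OXCT1mKO and 41.1 and 41.8 RPKM in Control and was the one that fell.

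Of 27 tested proteoglycans, elastic fibre and other matrix proteins, 8 rose and 1 fell, 33.3% in all, with a median log2 fold change of 0.54. Ltbp4, which holds latent TGF beta in the matrix, had 149 and 109 RPKM in OXCT1mKO and 32.8 and 39.3 RPKM in Control, a log2 fold change of 1.80 ± 0.18 (adjusted p = 0.0127 by limma). Tnxb, tenascin X, had 3.44 and 2.99 RPKM in OXCT1mKO and 1.09 and 1.06 RPKM in Control. Efemp2, a fibulin needed for elastic fibres, had 13.1 and 13.3 RPKM in OXCT1mKO and 25.1 and 27.7 RPKM in Control and fell by 0.95 on the log2 scale (adjusted p = 0.0127 by limma). Of 22 tested genes of TGF beta and PDGF signalling, 12 rose and 0 fell by limma, with 13 higher and 1 lower at an unadjusted p under 0.05. That is 54.5%, and the median log2 fold change was 0.46. Nrros, which tethers latent TGF beta on myeloid cells, had 33.8 and 32.1 RPKM in OXCT1mKO and 11.1 and 11.9 RPKM in Control. The receptor genes Tgfbr1, Tgfbr3 and Acvrl1 rose by 0.76 ± 0.10, 0.77 ± 0.11 and 0.77 ± 0.11. Several genes of these lists are also expressed by macrophages and endothelial cells, of whose markers 10 of 17 and 15 of 23 rose, and the part of those cells was not tested. Over all these lists, 45 of 164 tested genes passed, 40 higher and 5 lower. That is 27.4%, below the 32.8% of all tested genes. Without Control 2, more matrix receptors, laminins and basement membrane genes and contractile genes passed, but so did more of all tested genes.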

How the data were processed

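The authors deposited RPKM values in a single table. STAR 2.10, R 4.0.5 and build mm10 are named in the submitters' processing notes, which give neither the counter, nor its strand setting, nor the annotation. Samples were grouped by title and genotype label.

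Values were transformed to log2(RPKM + 1). The 12523 genes with a mean of at least 1 RPKM were fitted with limma 3.58.1 under R 4.3.3, with 1 coefficient for the group and variances that follow the mean. Tests were two-sided and adjusted by Benjamini-Hochberg over all of these genes. This scale understates the change of low genes. The fit was tested on simulated data.

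RPKM carry no counts. The periodicity of RPKM times exon length (GENCODE M21, found for 97.8% of symbols) gave estimated depths. Between 31.2% and 32.6% of the lowest values lay within 0.1 of a whole read, and most did not. The estimated depths and the reads given per gene are therefore approximate.

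RefSeq start windows (GRCm38.p6) were found for 41 of 54 members. Members and gene lists were chosen with earlier results of these data known. The rule names each tested member, lower members by type or a mean of at least 0.5 RPKM, up to 4 genes of each pathway list by smallest p, and a set of cell type genes. Other markers and lower members, and Pcsk7, were named after their values were seen. The rule also selects the 2 most abundant markers of every cell type list, which are given only where they bear on a member.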

Additional observations from a re-analysis of the deposited data

How the results depend on the processing

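The 6 members that passed kept their direction under all 14 alternatives and passed in 65 of the 82 values these gave. With 1 library left out, members called ranged from 0 to 8, all tested genes called from 1 to 4418, pathway list genes called from 0 to 63 and the member median from -0.08 to 0.11. With no filter on low values, 2340 genes and 27 pathway list genes were called. The member median was 0.19 with equal RPKM sums, 0.13 with equal sums without globin, and 0.23 both with a minimum mean of 5 RPKM and with a minimum mean of 0.1 RPKM and a pseudocount of 0.1, each of these over another set of members.

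Reversals were seen in members that did not pass. Col4a2 was 0.11 with equal sums, 0.05 with equal sums without globin and 0.01 with quantile normalization, and Col1a1 was 0.13 and 0.07 with the equal sums. Fbn1 and Col8a1 were each -0.05 with quantile normalization. With 1 library left out, log2 fold changes ran from -0.42 to 0.32 for Col4a2, -0.32 to 0.27 for Col1a1, -0.07 to 0.51 for Col4a1 and -0.20 to 0.65 for Fn1. They ran from -0.26 to 0.33 for Sparc, -0.07 to 0.15 for Fbn1, -0.33 to 0.43 for Col8a1, -0.06 to 0.35 for Col18a1, -0.10 to 0.57 for Col14a1 and -0.47 to 0.04 for Col15a1. The cause was not tested.

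With the replicate block, 3606 genes, 6 members and 54 pathway list genes were called, and the member median was 0.04. The deviations of same-numbered libraries correlated at 0.0545 over genes. The titles give no pairing beyond the number, and with 2 libraries a group this check cannot exclude a shared batch. With 2 libraries a group, differences smaller than the spread between libraries were not detectable.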
